A study of Arabidopsis thaliana with 12 samples.

Results

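In leaves of Arabidopsis thaliana, 994 genes had a linear trend over 3 levels of air humidity, with the mean level at moderate humidity between those at low and high humidity. These graded genes are 994 of 17368 genes tested (5.72%), out of 32833 genes listed, and comprise 783 rising genes (4.51% of those tested) and 211 falling genes (1.21%). A graded gene had a linear trend over the ordered settings low, moderate and high, scored 1, 2 and 3, with an adjusted p of at most 0.05 (limma on log2(TPM + 1), Benjamini-Hochberg adjustment over all tested genes). In addition, the share of its change from low to high humidity that fell in the lower step, from low to moderate, had to be at least 0.25 and below 1. Genes with such a trend that changed at high humidity only form a separate class, with 1553 members (8.94%), 950 higher (5.47%) and 603 lower (3.47%). Their lower-step share was less than 0.25 in size, of either sign. Their upper step, from moderate to high, was called in the direction of the trend. The rule used the trend and the lower-step share, so both are given for the members as descriptions. It did not test the single steps, and both had an adjusted p of at most 0.05 in only 10 of the 994. After another scaling of the libraries 401 of the 994 stayed graded in the same direction.

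All plants were wild type of the Col-0 accession, 3.5 to 4 weeks old, grown at 60% relative humidity and 22 °C with 12 h of light. For 1 h they were then kept at 1 of 3 settings of relative humidity. The low setting was 40 to 45%, the moderate setting 55 to 60% and the high setting 95%, with 4 libraries of leaf RNA each. The moderate setting lay next to the growth humidity, so the low and high settings were a shift towards drier and wetter air. The labels call the replicates biological but do not say whether a library holds 1 plant or several, and they name no date or batch, so p-values measure the spread between these libraries.

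Leaves lose water through stomata, and dry air raises this loss. Water deficit raises the hormone abscisic acid (ABA), which acts through receptors that inhibit the clade A phosphatases of type 2C. This frees SnRK2 kinases such as OST1 to close stomata and to activate transcription factors that bind promoter elements with an ACGTG core. Genes so induced include dehydrins and other late embryogenesis abundant proteins, which protect cells during drying. Aquaporins are channels that let water cross the plasma membrane (PIP) or the vacuole membrane (TIP), and heat shock proteins are chaperones that hold or refold other proteins.

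The leaf markers were high in every library, with 23693 to 29312 TPM (transcript abundance scaled to a fixed library total) for RBCS1A, the small subunit of Rubisco. The root markers PYK10 and WER stayed at or below 0.51 TPM and CASP1 was listed at 0, whereas SCR, also a bundle sheath gene, had 19.2 to 44.6 TPM. The flower markers AG, AP3 and PI did not exceed 3.5 TPM. Column sums were 998920 to 999399 TPM and 20691 to 20967 genes were above 0 per library. TPM keeps no read depth, so the depth is unknown. The photosynthetic genes (91) took 29.0 ± 2.49% of the TPM at low, 23.6 ± 0.108% at moderate and 27.2 ± 0.784% at high humidity (SD, n = 4), and low replicate 1 stood apart with 25.4% against 29.5 to 31.0% in the other low libraries. TPM is a share of a library. The median over all tested genes rose by 0.18 (log2) in the lower step and fell by 0.22 in the upper step. A median-of-ratios scaling of the libraries brought these shifts to 0.0084 and -0.016.

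The split of the graded genes into rising and falling depended on that scaling. Of the graded genes as deposited 78.8% rose, and of the 1004 graded genes after scaling 49.9% rose, that is 501 rising and 503 falling. Of the 783 rising genes, 233 were graded under both scalings and 536 moved to the class changed at high humidity only, while the trend itself stayed called in 772. Of the 211 falling genes, 168 were graded under both scalings, 36 lost the trend call and none moved to that class. The scaling lowered the lower steps and raised the upper steps. This raises the lower-step share of a falling gene and lowers that of a rising gene. The absence of such moves among falling genes follows from this and is no sign that they are firmer. The falling genes are described below first, and each rising gene is given with its class after scaling. Leaving out low replicate 2 lowered the falling count to 136, and leaving out low replicate 1 raised the rising count to 1059.

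**Figure D1:**
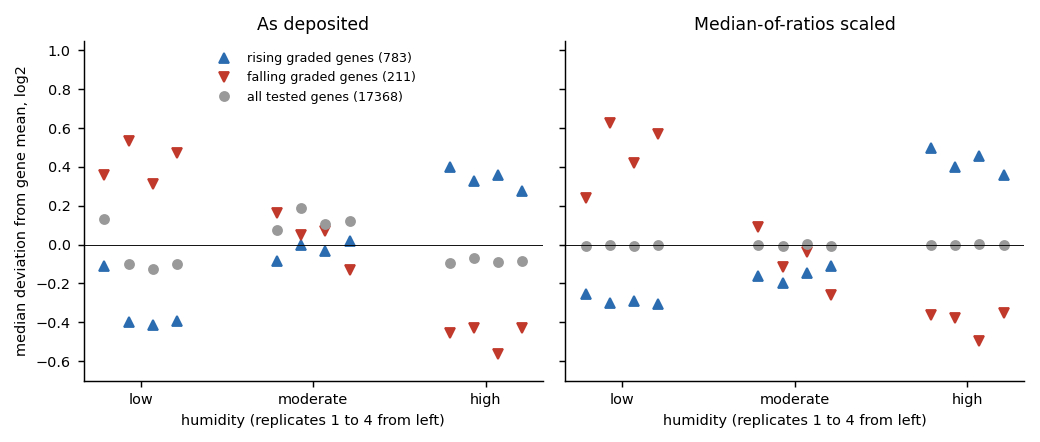
Median deviation of log2(TPM + 1) from each gene's mean over the 12 libraries, per library, for rising graded genes (triangles up), falling graded genes (triangles down) and all tested genes (circles), as deposited (left) and after median-of-ratios scaling (right). As deposited, the rising genes have -0.11 in low replicate 1 and -0.41 to -0.39 in the other low libraries.

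Promoters of 3 falling genes are shown because the values of these genes are given library by library below and their start regions differ in the ACGTG core. Each line gives the 200 bases before the annotated gene start, 5′ to 3′ on the gene's strand, read from the TAIR10.1 reference genome with its RefSeq annotation; capitals mark ACGTG on either strand (ACGTG or CACGT). LEA4-5 encodes a late embryogenesis abundant protein of group 4, and its window is chr5:2090431-2090630 on the minus strand. MYB102 encodes a transcription factor linked to osmotic stress and wounding, with the window chr4:11419770-11419969 on the minus strand. HAI1 encodes a clade A phosphatase induced by ABA, with the window chr5:23896940-23897139 on the minus strand.
LEA4-5: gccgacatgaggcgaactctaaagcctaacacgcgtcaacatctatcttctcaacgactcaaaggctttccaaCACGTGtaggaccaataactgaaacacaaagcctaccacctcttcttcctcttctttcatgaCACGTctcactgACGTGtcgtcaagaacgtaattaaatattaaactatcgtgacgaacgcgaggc
MYB102: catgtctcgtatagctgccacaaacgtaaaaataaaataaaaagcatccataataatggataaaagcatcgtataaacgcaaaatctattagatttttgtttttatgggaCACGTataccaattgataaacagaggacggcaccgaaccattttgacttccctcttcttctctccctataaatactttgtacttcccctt
HAI1: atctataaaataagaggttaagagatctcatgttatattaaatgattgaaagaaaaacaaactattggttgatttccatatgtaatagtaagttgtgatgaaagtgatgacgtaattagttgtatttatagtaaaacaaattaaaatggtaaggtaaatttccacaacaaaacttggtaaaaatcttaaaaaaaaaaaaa
The LEA4-5 window holds 4 matches, of which 2 overlap within 1 CACGTG, the MYB102 window holds 1, and the HAI1 window holds none. The match shows letters only, and its absence says only that these letters are not in this window.

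Across all genes with a promoter window of 250 bases, ACGTG on either strand was found in 63 of 210 falling graded genes (30%), 162 of 783 rising graded genes (20.7%) and 3998 of 17299 tested genes (23.1%). The genes lower at high humidity only had 32% and those higher at high humidity only 23.8%. CACGTG, which contains ACGTG, was in 11.9% of falling, 6.51% of rising and 7.35% of tested genes. It was in 12.9% of genes lower and 6% of genes higher at high humidity only. ACGCGT, the letters bound by CAMTA factors, was in 1.43% of falling, 3.07% of rising and 1.77% of tested genes, and in 5.37% of genes higher at high humidity only. The rising share turned with the scaling: of the 233 rising genes graded under both scalings 3 held ACGCGT (1.29%). CCGAC, the core of the dehydration-responsive element, was in 16.2% of falling, 12.9% of rising and 13.3% of tested genes. It was in 15.4% of genes lower and 12.1% of genes higher at high humidity only. TTGACC, a W-box, was in 11.9%, 10.7% and 11.9%, AAACCCTA in 1.9%, 2.04% and 3.56%, and AAAATATCT, the evening element, in 4.76%, 2.43% and 2.38%. These 7 motifs were counted on both strands, and the shares carry no test.

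RAB18, a dehydrin induced by ABA, fell in both steps. Its level was 50.67, 65.48, 51.58 and 58.98 TPM in the low libraries, 41.5, 36.17, 36.31 and 24.47 TPM in the moderate libraries, and 19.79, 17.29, 17.39 and 18.62 TPM in the high libraries. Every low library lay above every moderate library, and every moderate library above every high library. The trend was -0.79 ± 0.073 (SE) log2 per step (adjusted p = 9.2e-05), with 0.452 of the change in the lower step, and both steps were called (adjusted p = 0.039 and 4.1e-04). After scaling both steps were still called (adjusted p = 0.031 and 0.010). RAB18 does not stand for all dehydrins: COR47, ERD10 and ERD14 had no called trend (adjusted p = 0.93, 0.38 and 0.40). These 3 were named after their values were seen.

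LEA4-5 was measured at 9.73, 16.1, 10.33 and 12.65 TPM at low, 7.71, 3.29, 7.07 and 4.7 TPM at moderate and 0.85, 0.42, 0.54 and 0.22 TPM at high humidity. The libraries were again fully ordered, and the high libraries were all under 1 TPM. Its trend was -1.56 ± 0.14 log2 per step (adjusted p = 8.8e-05). The lower step alone missed the threshold (adjusted p = 0.056). MYB102 showed 8.46, 7.77, 6.06 and 7.53 TPM at low, 5.09, 5.92, 4.32 and 3.54 TPM at moderate and 1.16, 1.07, 0.87 and 1.46 TPM at high humidity, also with no overlap between settings. Its trend was -0.99 ± 0.0995 log2 per step (adjusted p = 1.1e-04); MYB102 lies outside the rule for named genes and was chosen after its values were seen.

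The phosphatases of the ABA pathway spread more within a setting. HAI1 had 5.98, 15.18, 4.61 and 12.51 TPM at low, 8.08, 3.38, 4.2 and 1.31 TPM at moderate and 1.92, 1.12, 1.09 and 1.58 TPM at high humidity. Low and moderate libraries overlapped, and moderate replicate 4 lay among the high libraries. The HAI1 trend was -1.0 ± 0.19 log2 per step (adjusted p = 0.0033), with neither step called (adjusted p = 0.13 and 0.078). PP2CA, another clade A phosphatase, had means of 100.8 ± 42.2, 66.8 ± 21.3 and 45.6 ± 7.41 TPM (SD, n = 4 here and below) at low, moderate and high humidity, with a trend of -0.52 (adjusted p = 0.021). Its call was lost without low replicate 2, low replicate 4 or high replicate 4 (adjusted p = 0.063, 0.060 and 0.068). RD29B, a classic target of ABA in drying leaves, was near 1 TPM, with 1.31 ± 0.384, 0.758 ± 0.503 and 0.0925 ± 0.0797 TPM. The RD29B trend of -0.53 on the log2(TPM + 1) scale (adjusted p = 0.0027) understates the change of such a low gene.

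Of the ABA-responsive list, 26 of 28 genes were tested, 4 were graded and falling (RAB18, HAI1, PP2CA, RD29B) and 14 were lower at high humidity only, among them the transcription factor genes HB7 and HB12 and the phosphatase gene ABI1. Over all tested genes 1.21% were graded and falling and 3.47% lower at high humidity only. The moderate mean lay between the outer means in a falling order in 19 of the 26, beside 25.9% of all tested genes in either order. The list's median slope was -0.67 log2 per step, with -0.34 in the lower and -0.98 in the upper step, beside a median slope of -0.029 over all tested genes. After scaling 8 were graded and falling, beside 503 of all 17368 tested genes (211 as deposited). The added 4 were HAI2, RD26, RD22 and RD29A, which moved across the 0.25 limit. These 4 were chosen after their values were seen. HB7 had 28.9, 25.6 and 6.17 TPM, with 0.080 of the change in the lower step. HB7, HB12 and ABI1 were likewise chosen after their values were seen. No tested ABA receptor was graded as deposited, and 5 of 9 were higher and 1 lower at high humidity only, beside 5.47% and 3.47% of all tested genes. After scaling the lower one, PYL7, was graded and falling (adjusted p = 0.017).

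NCED3, the enzyme that limits ABA synthesis in drying leaves, had 2.38, 6.36, 2.47 and 3.32 TPM at low, 2.61, 1, 3.01 and 2.35 TPM at moderate and 1.41, 0.72, 0.74 and 0.69 TPM at high humidity. Low and moderate libraries overlapped, and so did moderate replicate 2 and high replicate 1. The trend was -0.62 ± 0.13 log2 per step (adjusted p = 0.0054). It was the only graded gene among 12 tested of 14 genes of ABA synthesis and breakdown, where 1 other was higher at high humidity only. Of 10 genes of osmolyte metabolism none was graded as deposited, 5 were lower and 1 higher at high humidity only, beside 3.47% and 5.47% of all tested genes. After scaling SUS3, a sucrose synthase, was graded and falling (adjusted p = 0.0057). P5CS1, the rate-limiting enzyme of proline synthesis, had 317, 309 and 21.4 TPM, with 0.024 of the change in the lower step.

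**Figure D2:**
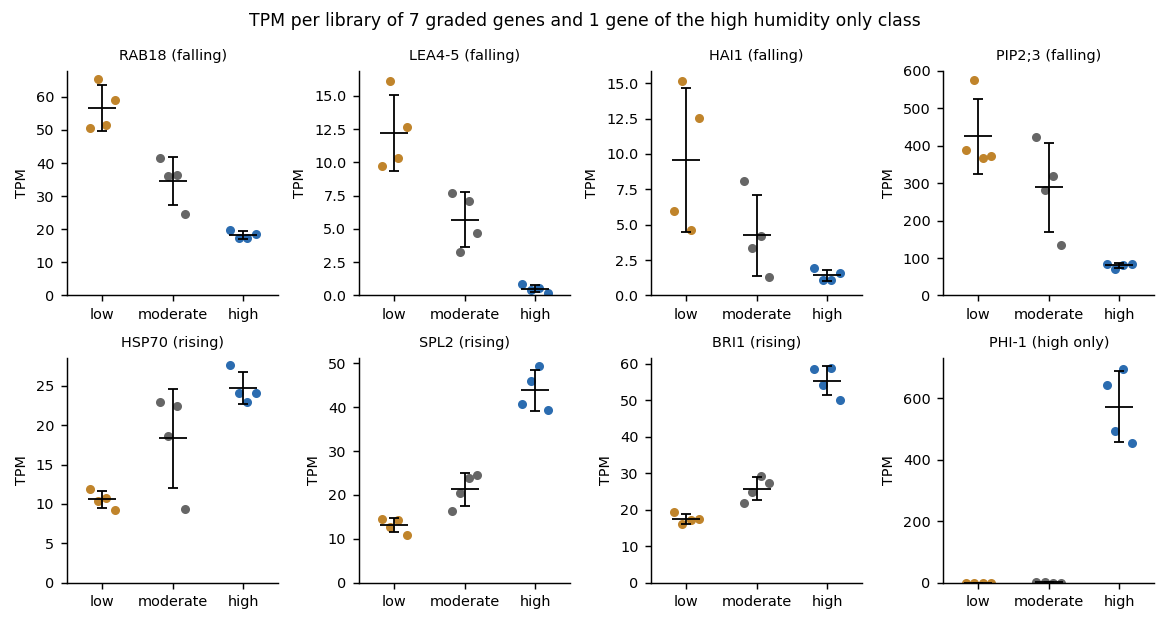
TPM per library (points, replicates 1 to 4 from left) at low, moderate and high humidity for 7 graded genes and PHI-1, a gene of the class changed at high humidity only; bars are the mean and SD of 4 libraries, and each panel has its own axis from 0. RAB18 steps down from 56.7 to 34.6 to 18.3 TPM, whereas PHI-1 stays near 1 TPM at low and moderate humidity and reaches 572 TPM at high humidity.

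Aquaporin genes were the list with the most graded falling members as deposited. PIP2;3 had 388.65, 575, 365.66 and 372.4 TPM at low, 422.51, 280.93, 318.01 and 134.67 TPM at moderate and 82.97, 71.66, 82.61 and 82.8 TPM at high humidity. The high libraries were below all others, and moderate replicate 1 lay among the low libraries. Its trend was -1.19 ± 0.16 log2 per step (adjusted p = 4.3e-04). PIP2;2, its neighbour in the genome and a near copy, so that the split of reads between them is uncertain, had 444.6 ± 72.4, 327 ± 90.8 and 124 ± 9.01 TPM with a trend of -0.91 (adjusted p = 2.5e-04).

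PIP2;5 fell from 9.20 ± 1.14 over 5.79 ± 2.38 to 2.23 ± 0.663 TPM, with a trend of -0.84 (adjusted p = 5.2e-04). PIP1;2 was the most abundant of the graded aquaporins, with 1764 ± 243, 1475 ± 201 and 1208 ± 125.3 TPM and a smaller trend of -0.27 (adjusted p = 0.0077). TIP2;2, the fifth, was named after its values were seen: it had 480, 263 and 241 TPM, with 0.907 of its change in the lower step, and its trend was not called after scaling (adjusted p = 0.053). Of the 17 aquaporins tested 5 were graded and falling and none graded and rising; 2 were higher (PIP1;5 and PIP2;7) and 1 lower (PIP2;1) at high humidity only. Over all tested genes these shares were 1.21% graded and falling, 5.47% higher and 3.47% lower at high humidity only. The list's median slope was -0.12 log2 per step, but its median steps went opposite ways, with -0.26 in the lower and 0.073 in the upper step. Scaled, these median steps were -0.45 and 0.31, so the list as a whole did not fall steadily. After scaling 5 were again graded and falling, with PIP2;1 in and TIP2;2 out, beside 503 of all 17368 tested genes (211 as deposited).

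The 12 graded genes with the steepest falling trends were ERF53, AT1G30250, AT5G53710, AT1G48100, AT3G56260, LEA4-5, LBD1, AT3G27250, PIP2;3, SIS, AT4G28140 and PAP1. All 12 were graded after scaling as well, which raises the lower-step share of falling genes. ERF53, a transcription factor of the ethylene response factor family, had 22.69, 36.82, 15.45 and 9.89 TPM at low, 15.81, 7.89, 12.8 and 2.86 TPM at moderate and 0.23, 0.05, 0 and 0 TPM at high humidity. It was the steepest, at -2.12 ± 0.27 log2 per step (adjusted p = 3.8e-04), and its low and moderate libraries overlapped. AT1G30250, for which the reference names no function, was fully ordered, with 102 ± 35.7, 43.4 ± 20.1 and 5.83 ± 1.01 TPM and a trend of -1.93 (adjusted p = 1.2e-04). LBD1, a LOB-domain transcription factor gene, had 5.66 ± 4.15 and 1.88 ± 1.57 TPM at low and moderate humidity and is listed at 0 in all high libraries. PAP1, an activator of anthocyanin synthesis, had 7.25 ± 7.54, 3.79 ± 2.98 and 0.375 ± 0.262 TPM, a spread as large as its low mean, and an adjusted p of 0.026. The PAP1 call was lost without low replicate 2 or 4 or any 1 of the high libraries (adjusted p = 0.053 to 0.080).

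In 10 genes (0.0576%) both steps were called, each as a difference of means, which does not require that the libraries of 2 settings lie apart. In 3 falling genes (0.0173% of those tested) both steps were called, namely RAB18, ERF8 and LP1. ERF8, a repressor of the ethylene response factor family, had 20.5 ± 6.66, 8.29 ± 2.01 and 5.32 ± 1.1 TPM, with 0.685 of the change in the lower step. Its moderate replicate 4, with 5.76 TPM, lay among the high libraries at 4.42 to 6.81 TPM. LP1, a lipid transfer protein of the cell wall, fell from 1428 ± 118 over 1056 ± 131 to 856 ± 27.8 TPM, with fully ordered libraries. After scaling the upper step of ERF8 and of LP1 was no longer called (adjusted p = 0.27 and 0.77). Both steps were called after scaling in 5 falling genes, namely RAB18, MYB102, KCR2, AT3G27270 and EXPA4. KCR2, a reductase of the family that elongates fatty acids, had 6.65 ± 0.643, 4.52 ± 0.434 and 1.54 ± 0.433 TPM and fully ordered libraries. EXPA4, an expansin, had 39.1, 30.6 and 10.98 TPM and was lower at high humidity only as deposited. KCR2, AT3G27270 and EXPA4 were chosen after their values were seen, as were the next 3 genes.

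These 3 falling genes were graded under both scalings. COR15B, a chloroplast protein that protects membranes during freezing, had 37.9 ± 18.5, 21.7 ± 7.56 and 8.97 ± 1.45 TPM (adjusted p = 0.0024). Its relative COR15A, with 454, 304 and 169 TPM, had no called trend (adjusted p = 0.12). NAC032, a transcription factor of stress responses, had 8.79 ± 4.61, 6.19 ± 2.54 and 2.31 ± 0.533 TPM (adjusted p = 0.0084). WOX13, a homeobox transcription factor, had 46.6 ± 10.1, 32.8 ± 10.5 and 11.1 ± 0.989 TPM (adjusted p = 3.0e-04).

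Among falling members moderate replicate 4 was the lowest moderate library in 103 of 211 (48.8%), and moderate replicate 1 the highest in 89 (42.2%). Without moderate replicate 4 the falling count was 186. The per-library median of the falling members was 0.31 to 0.53 (log2, against each gene's mean) at low, -0.13 to 0.16 at moderate and -0.57 to -0.43 at high humidity, a separation that the choice of members fixes.

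Rising members had smaller changes. The median difference between high and low humidity was 0.66 (log2) in rising and 0.87 in falling members, and it reached 2-fold in 144 rising (18.4%) and 85 falling members (40.3%), beside 8.05% of all tested genes. Genes higher at high humidity only reached 2-fold in 633 of 950 (66.6%). The largest graded changes were 2.36 (log2) rising and 4.23 falling, against 8.60 for PHI-1, a phosphate-responsive gene that was higher at high humidity only.

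SPL2, a transcription factor of the SQUAMOSA promoter binding family, had 14.56, 12.73, 14.26 and 10.96 TPM at low, 16.33, 20.44, 23.82 and 24.57 TPM at moderate and 40.76, 46.06, 49.29 and 39.26 TPM at high humidity. Its libraries were fully ordered. The SPL2 trend was 0.83 ± 0.075 log2 per step (adjusted p = 8.8e-05), both steps were called (adjusted p = 0.048 and 7.7e-05), and it was graded after scaling, with 0.271 of the change in the lower step. BRI1, the receptor of brassinosteroids, growth hormones, had 19.32, 16.1, 17.11 and 17.36 TPM at low, 21.71, 24.82, 29.26 and 27.41 TPM at moderate and 58.45, 54.03, 58.66 and 50.16 TPM at high humidity, again fully ordered. Its trend was 0.80 ± 0.069 log2 per step, with 0.330 of the change in the lower step as deposited and 0.209 after scaling, which placed it in the class changed at high humidity only.

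Both steps were called in 7 rising genes (0.0403%), all 7 with fully ordered libraries: AT5G53500, SPL2, AT2G27500, AT3G08600, BRI1, MGP4 and AT5G23280. Of these AT5G53500, SPL2, MGP4 and AT5G23280 stayed graded after scaling, and in none were both steps called then. MGP4, a xylosyltransferase of pectin, had 6.46 ± 0.421, 9.70 ± 0.398 and 13.0 ± 1.89 TPM, with 0.580 of the change in the lower step. AT5G23280, a transcription factor of the TCP family, had 19.1 ± 1.93, 27.2 ± 1.12 and 33.9 ± 3.33 TPM, with 0.619 in the lower step. These counts rested on single libraries: without low replicate 1 both steps were called in 361 rising and 26 falling genes, and without any 1 of the other libraries in 0 to 5 rising and 0 to 1 falling genes.

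The 12 steepest rising graded genes were AT1G28660, AT3G45230, HAT1, SD2-5, AT2G27500, SRS6, PDLP3, AT1G69760, AT1G60060, AT5G53500, SOFL1 and KCS9. Only HAT1, SD2-5 and AT5G53500 of them were graded after scaling; the other 9 then counted as changed at high humidity only. HAT1, a homeodomain-leucine zipper transcription factor, rose from 6.58 ± 1.71 over 11.5 ± 2.44 to 31.3 ± 7.03 TPM (adjusted p = 1.2e-04). KCS9, which elongates very long fatty acids for waxes and other lipids, had 52.1 ± 11.1, 75.7 ± 11.8 and 176 ± 14.2 TPM. PDLP3, a protein of the plasmodesmata that connect plant cells, had 9.80 ± 2.36, 14.2 ± 4.04 and 36.3 ± 3.44 TPM.

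Heat shock genes were the list with the most graded rising members. HSP70, a chaperone of the cytosol, had 11.9, 10.43, 10.7 and 9.28 TPM at low, 22.93, 18.61, 22.41 and 9.38 TPM at moderate and 27.62, 24.06, 23 and 24.07 TPM at high humidity. The high libraries were above all others, and moderate replicate 4 lay among the low libraries. The trend was 0.58 ± 0.11 log2 per step (adjusted p = 0.0022), with 0.583 of the change in the lower step. HSP101, which pulls proteins out of aggregates, had 8.04 ± 1.31, 11.6 ± 2.99 and 14.4 ± 1.17 TPM (trend 0.39, adjusted p = 0.0060).

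HSP90.1 had 10.03 ± 5.12, 13.6 ± 4.27 and 21.6 ± 5.65 TPM (trend 0.55, adjusted p = 0.015), and HSFA2, a heat stress transcription factor, 9.95 ± 3.41, 15.3 ± 8.47 and 20.3 ± 2.87 TPM (trend 0.50, adjusted p = 0.036). Without high replicate 1 or 2 the HSP90.1 call was lost (adjusted p = 0.0504 and 0.0528), and the HSFA2 call was lost in 8 of 20 alternatives, with an adjusted p of up to 0.0998. Of the heat shock list 8 of 12 genes were tested, and 4 were graded and rising, beside 4.51% of all tested genes. None changed at high humidity only. After scaling the same 4 and FES1A and ROF2 were graded and rising (as deposited adjusted p = 0.14 and 0.080), beside 501 of all 17368 tested genes. The list's median slope was 0.38 log2 per step as deposited. HSP17.6II and HSP18.2, small heat shock proteins at 0.760 to 1.75 TPM on average, had adjusted p of 0.47 and 0.63. HSFA7A, another heat stress factor, chosen after its values were seen, had 0.820 ± 0.587, 2.41 ± 0.815 and 3.51 ± 0.793 TPM and was graded under both scalings (adjusted p = 0.0019).

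**Figure D3:**
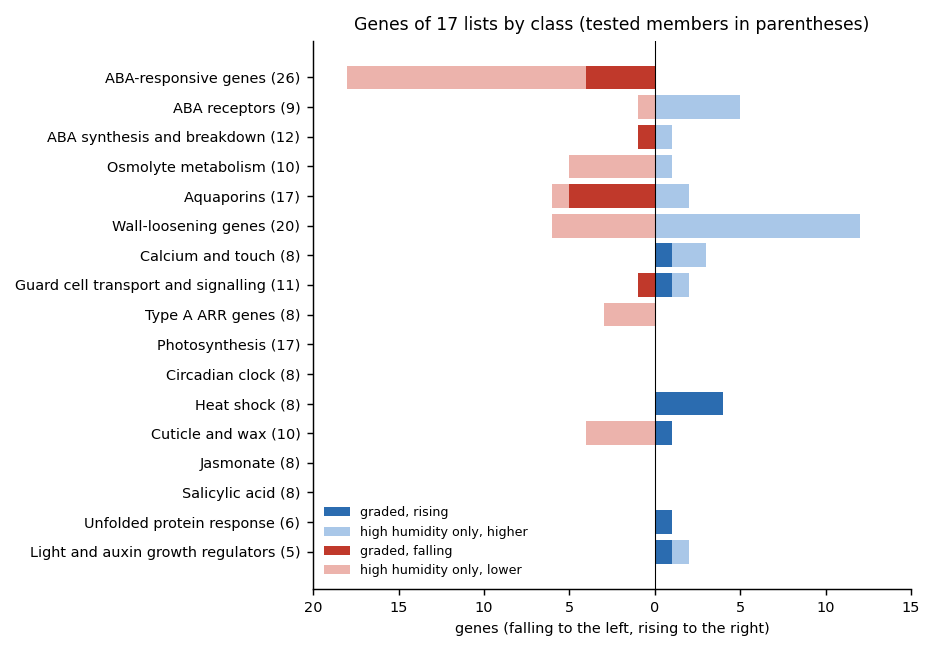
Number of tested genes of 17 lists that were graded (dark) or changed at high humidity only (pale), falling to the left and rising to the right, as deposited. Graded bars are longest for aquaporins (5 falling), ABA-responsive genes (4 falling) and heat shock genes (4 rising), and pale bars for ABA-responsive genes (14 lower) and wall-loosening genes (12 higher).

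The other lists held at most 1 graded gene in either direction as deposited. Over all tested genes 4.51% were graded and rising and 1.21% graded and falling, and 5.47% were higher and 3.47% lower at high humidity only. CML23, a calmodulin-like protein, rose from 2.31 ± 0.842 over 3.54 ± 1.00 to 6.69 ± 1.12 TPM (trend 0.62, adjusted p = 0.0011) and was graded under both scalings; 2 of the other 7 calcium and touch genes were higher at high humidity only. CER3, an enzyme of wax alkane synthesis, rose from 48.1 ± 3.74 over 67.0 ± 6.61 to 89.8 ± 18.8 TPM (trend 0.43, adjusted p = 9.5e-04) under both scalings, while 4 of 10 cuticle genes were lower at high humidity only. After scaling 3 of these 4, CER1, CER2 and KCS6, were graded and falling, beside 503 of all 17368 tested genes. OST1, the kinase that ABA frees, had 16.7 ± 2.92, 19.9 ± 1.85 and 25.2 ± 2.27 TPM (trend 0.29, adjusted p = 0.0054) and ALMT12, an anion channel of guard cells, 6.77 ± 0.328, 4.93 ± 1.28 and 4.35 ± 0.962 TPM (trend -0.28, adjusted p = 0.039). These were the 2 graded genes of 11 guard cell genes, and neither was graded after scaling (ALMT12 adjusted p = 0.069). The ALMT12 call was also lost when any 1 low library or high replicate 1, 2 or 3 was left out (adjusted p = 0.066 to 0.105).

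PIF5, a light-signalling factor, and CNX1, a chaperone of the endoplasmic reticulum, each had a rising trend of 0.22 log2 per step (adjusted p = 0.013 and 0.015) and changed at high humidity only after scaling. They were the only graded genes of 5 light and auxin genes and of 6 genes of the unfolded protein response. No wall-loosening gene was graded as deposited, and 12 of 20 were higher and 6 lower at high humidity only, beside 5.47% and 3.47% of all tested genes. XTH22, which cuts and joins xyloglucan, had 3.71, 7.78 and 815 TPM, with 0.090 of the change in the lower step. After scaling EXPA4 and EXPA10 were graded and falling. Of 8 type A response regulators of cytokinin none was graded and 3 were lower at high humidity only. None of 17 photosynthesis, 8 clock and 8 jasmonate genes had a called trend, and of 8 salicylic acid genes 1 had a called falling trend that was not graded; after scaling 1, ICS1, was graded and falling.

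**Figure D4:**
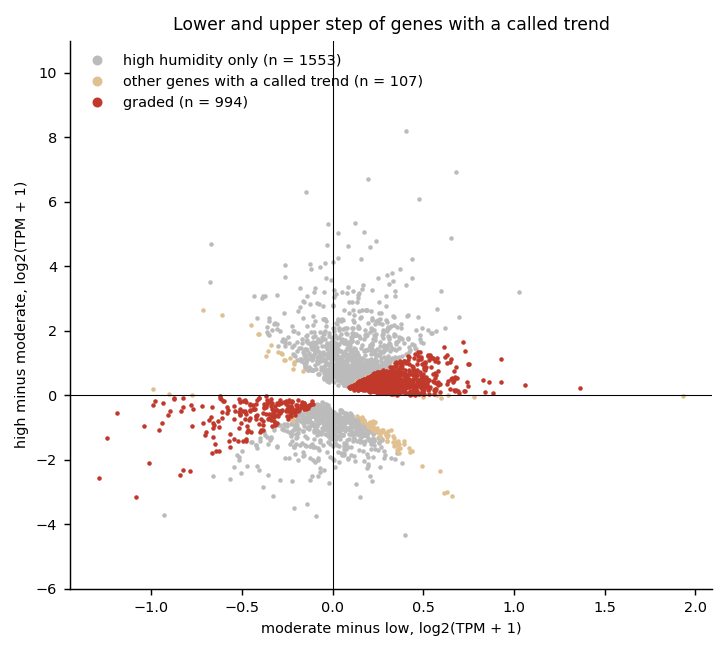
Difference between moderate and low humidity (x axis) and between high and moderate humidity (y axis), both in log2(TPM + 1), for the 2654 genes with a called trend; red points are the 994 graded genes, grey points the 1553 genes changed at high humidity only and tan points the other 107. The graded genes form a wedge in the upper right and lower left, and the border to the grey points is the 0.25 limit.

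The graded genes were 37.5% of the 2654 genes with a called trend (15.3% of those tested), 44.5% of the 1760 rising (10.1%) and 23.6% of the 894 falling ones (5.15%). Without any 1 of the high libraries the falling trends numbered 481 to 564, and without high replicate 1, 3 or 4 the genes lower at high humidity only numbered 336 to 371. The moderate mean lay between the outer means in 4491 genes (25.9%). A gene linear in the score would have 0.5 of its change in the lower step, and one linear in the relative humidity at the middle of each setting (42.5, 57.5 and 95%) 0.286. The median was 0.437 in rising and 0.395 in falling members. The share lay between 0.25 and 0.5 in 489 rising and 138 falling members, from 0.5 to 0.75 in 228 and 55, and above that in 66 and 18. The limit cut through a continuous range: AT3G05910 with 0.2515 counted as graded and AT1G58110 with 0.2499 did not, and among falling genes AT4G15700 with 0.2504 did and FLS1 with 0.2492 did not.

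Members were chosen for a called trend, and fewer of them had a called single step. Over all tested genes the upper step was called in 7919, more than the 2654 with a called trend. The lower step was called in 11 rising and 4 falling members, beside 40 genes (0.23%) higher and 77 (0.443%) lower over all tested genes, and its unadjusted p was under 0.05 in 459 rising and 93 falling members, beside 5077 (29.2%) of all. The upper step was called in 411 rising and 104 falling members, beside 11.4% and 34.2% of all tested genes. A departure from a straight line was called in 15 rising and 7 falling members, in 688 and 388 of the genes higher and lower at high humidity only, and in 36.6% of all tested genes. The rule itself excludes strongly bent patterns, so nothing is read from these counts. Several named members are among those with a called departure, their upper step being the larger. Falling ones are LEA4-5, MYB102, KCR2, PIP2;2, AT1G48100 and AT3G56260 (adjusted p = 0.010 to 0.047). Rising ones are BRI1, AT3G45230, AT2G27500, AT1G60060, SOFL1 and KCS9 (adjusted p = 0.025 to 0.046). Fully ordered libraries were found in 152 genes (0.875%), of which 110 were graded, 41 changed at high humidity only and 1 had no called trend. Without low replicate 1, 415 genes were fully ordered upwards, against 130 with it. Fully ordered genes made up 93 of 783 rising (11.9%) and 17 of 211 falling members (8.06%). In rising members low replicate 1 was the highest low library in 569 of 783 (72.7%).

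Gene properties differed between the members, as a description without a test. Falling members were short, with a median gene length of 1852 bases against 2687 in rising members and 2419 in all tested genes, and 36.2%, 12.1% and 18.6% were under 1500 bases. Of the rising genes graded under both scalings 19.3% were under 1500 bases, close to the share of all tested genes, and of the falling ones 34.7%. The median level at moderate humidity was 16.3 TPM in rising, 6.35 TPM in falling and 12.1 TPM in all tested genes. A neighbouring gene graded in the same direction was found for 14 of 210 falling members (6.67%), beside 2.35% of the other tested genes, and for 108 of 783 rising members (13.8%), beside 8.58%. This was not particular to graded genes. A neighbour of the same class was found for 19.9% of genes higher at high humidity only, beside 9.99% of the others. For genes lower at high humidity only it was 13.4%, beside 6.54%. The counting of strands is not stated, so reads of overlapping neighbours cannot be told apart, and PIP2;2 with PIP2;3 is 1 of the falling pairs.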

How the data were processed

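RNA sequencing libraries of leaves (12, 4 per humidity) were analysed from the deposited table of TPM, a unit that by definition scales reads by gene length and library total; the submitters' processing notes list the tools fastp, HISAT2 and RSEM and the genome build TAIR10, without versions. The 3 columns of means in the table were not used, and no 2 libraries were identical. Genes with at least 1 TPM in at least 4 libraries (17368) were tested on log2(TPM + 1). In R 4.3.3 with limma 3.58.1, a slope on the score 1, 2, 3 (10 residual degrees of freedom) and a fit of 3 means (9) were moderated with intensity trend and robust variance and adjusted by Benjamini-Hochberg. The fits were tested on simulated data with changes larger than those of most members, so this says nothing about sorting at smaller changes. Called means an adjusted p of at most 0.05. All adjusted p in the report come from these limma fits, whose main form has no replicate block. Within a setting libraries correlated at 0.960 to 0.985.

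The genes named are the 12 steepest graded genes in each direction with a mean log2 of at least 1, genes with both steps called, up to 4 graded genes per list, 3 steep genes per direction of the high humidity only class, and genes at the 0.25 limit; any other gene named was chosen after its values were seen. The members and the 17 lists (209 genes, 191 tested) were chosen with earlier results of these data known. Names came from the RefSeq annotation of TAIR10.1, joined by locus code (32548 of 32833 loci). Promoters were read from TAIR10.1 by its own annotation. Alternatives were another scaling, pseudocount, filter, score, moderation and limit, and each library left out.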

Additional observations from a re-analysis of the deposited data

Results flagged for a closer look

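In each setting the highest and the lowest of 4 libraries were compared with the others by Dixon's criterion at the 95% level, for the named genes and 4 measures per library; 14 of 198 groups were marked, and chance marks about 1 in 20. Low replicate 1 stood apart in the scale factor, with 1.116 against 0.9131 to 0.9292 in the other low libraries, and in the median deviation of the rising graded genes, with -0.1121 against -0.4147 to -0.3927. It was also the high value of SD2-5, a receptor kinase, with 6.23 TPM against 1.79 to 2.48.

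Among falling genes, PIP2;3 in low replicate 2 had 575 TPM (others 365.66 to 388.65) and in high replicate 2 it had 71.66 TPM (others 82.61 to 82.97). SIS had 7.79 TPM in moderate replicate 2 (others 3.02 to 3.61), NCED3 1.41 TPM in high replicate 1 (others 0.69 to 0.74) and ALMT12 5.78 TPM in high replicate 4 (others 3.79 to 4.03). AT5G53710 had 0.24 TPM in high replicate 4 and AT4G28140 0.08 TPM in high replicate 1, with the other high libraries listed at 0.

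Among rising genes, HSP90.1 had 19.96 TPM in moderate replicate 2 (others 10.98 to 12.13), SOFL1 30.67 TPM in moderate replicate 2 (others 40.04 to 40.63), MGP4 5.83 TPM in low replicate 3 (others 6.63 to 6.73) and AT1G60060 5.57 TPM in high replicate 1 (others 4.15 to 4.3).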

How the results depend on the processing

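Median-of-ratios scaling gave 501 rising and 503 falling graded genes, 1507 genes higher at high humidity only, 1366 falling trends, 0 and 5 genes with both steps called and 73 genes fully ordered upwards. With scaling and without low replicate 1, a choice made after seeing the data, 605 falling genes were graded and both steps were called in 17 and 18 genes. Both steps called, rising and falling, numbered 1 and 0 without a filter, 28 and 4 at 5 TPM, and 2 and 0 without moderation by intensity. A score of relative humidity gave 1881 falling trends and the contrast of high with low 1965. A limit of 0.15 gave 325 falling graded genes and 627 higher and 389 lower genes at high humidity only, and a limit of 0.35 gave 133 falling graded genes. Leaving out 1 library at a time gave 578 to 1059 rising and 136 to 269 falling graded genes, 735 to 968 higher and 336 to 688 lower genes at high humidity only, 1353 to 1918 rising and 481 to 1021 falling trends, 0 to 361 and 0 to 26 genes with both steps called, and 133 to 415 and 22 to 46 fully ordered genes. The replicate numbers did not pair the libraries (same-number correlations -0.320 to 0.241, 4 of 12 above 0.1); with the number as a replicate block 657 and 181 genes were graded and both steps were called in 0 and 1. Of 62 named genes, 5 lost their trend call under some alternative (PAP1, PP2CA, ALMT12, HSP90.1, HSFA2) and none reversed. This covers the trend call only, not the graded class or the single steps. After scaling 3 of the 12 steepest rising and all 12 of the steepest falling graded genes stayed graded. Of the 10 genes with both steps called, only RAB18 kept both calls after scaling.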
